A study of Mus musculus with 6 samples.

Results

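STAT proteins (signal transducers and activators of transcription) carry cytokine signals from the cell membrane to genes. A bound receptor activates JAK kinases, which phosphorylate STAT proteins on tyrosine, and the STATs then pair, enter the nucleus and bind DNA. Stat2 acts with the DNA-binding factor Irf9 in the response to type I interferon, Stat3 after cytokines of the interleukin-6 group, Stat4 after interleukin-12, Stat5a and Stat5b after erythropoietin, interleukin-3 and GM-CSF, and Stat6 after interleukin-4. In blood cells the Stat5 pair is best known for sustaining red cell and mast cell precursors. Several STAT genes are themselves under interferon control, Stat2 among them.

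The genes described here are Stat2, Stat3, Stat4, Stat5a, Stat5b and Stat6, 6 of the 27179 genes in the count table. These genes were listed by name, with earlier results of these data known. They were measured by RNA sequencing in sorted mouse acute myeloid leukemia cells. The panobinostat group (3 libraries) came from C57BL/6 mice that carried the leukemia labelled A/E9a;NRASG12D and received panobinostat, an inhibitor of histone deacetylases, for 3 days. The vehicle group (3 libraries) came from mice of the same strain with the same leukemia, given the drug's carrier alone. Cells of both groups were GFP-positive, were sorted from spleen and were selected for viability with propidium iodide. Both groups thus hold the same leukemia, which the labels list as 1 cell line, so the values describe that line and no other. No label ties the libraries to separate mice, so a p-value here rests on a spread between libraries that may be technical.

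Libraries are named by their group and the leading number of their count column, which gives panobinostat libraries 1, 5 and 6 and vehicle libraries 2, 3 and 4. Total counts lay between 25794869 and 32571961 per library, and 12916 genes were abundant enough to test. Levels are counts normalised to library size (CPM), scaled by TMM factors, and 1 count was worth 0.0315 to 0.0403 CPM. The test was edgeR's quasi-likelihood test with Benjamini-Hochberg adjustment over all tested genes, with calls made where the adjusted p was under 0.05. By this rule 21.0% of tested genes were called, 11.3% higher and 9.72% lower with panobinostat. Of a list of erythroid, mast and progenitor genes, 8 of 8 were detected and tested. The list was chosen with earlier results of these data known, so this describes the cells and does not check their label. Car2 and Hdc were named from it after their values were seen. Car2 of red cell precursors was at 2652 ± 1212 CPM with panobinostat and 2282 ± 293 CPM with vehicle (SD, n = 3 each), and Hdc of mast cells at 1540 ± 597 and 1230 ± 102 CPM in the same order. Markers of other spleen cells were low. The 11 markers of T and NK cells summed to 15.1 to 22.7 CPM with panobinostat and 15.5 to 18.7 CPM with vehicle, and the 5 neutrophil markers to 1.89 to 6.31 and 2.68 to 7.41 CPM in the same order.

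Of the 6 STAT genes, 5 were abundant enough to test and 2 of these were called, Stat2 and Stat3, both higher with panobinostat. Stat2 rose 3.11-fold and Stat3 1.42-fold. Stat5a, Stat5b and Stat6 did not pass, and their estimates lay within 1.17-fold of no change. Stat4 was too low to test in either group. The median log2 fold change of the 5 tested STAT genes, 0.21, stands beside 0.01 over all tested genes. The groups did not overlap in any of the 5 tested STAT genes, against 44.6% of all tested genes.

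**Figure D1:**
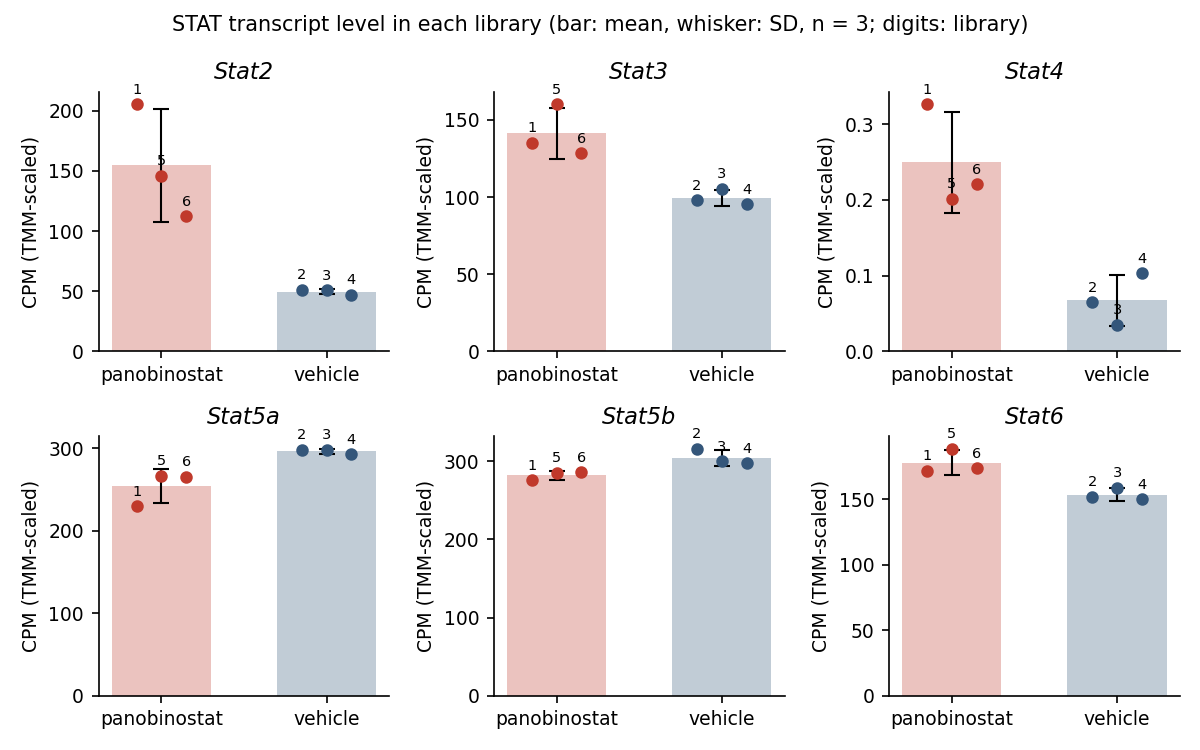
Level of each STAT gene in TMM-scaled CPM, with panobinostat libraries (red) left of vehicle libraries (blue); points are libraries, digits their numbers, bars the mean and whiskers the SD (n = 3). Stat2 lay at 112 to 205 CPM with panobinostat and at 47.0 to 51.2 CPM with vehicle, while all Stat4 values were under 0.33 CPM on their own axis.

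Stat2, the partner of Irf9 in the type I interferon response (Entrez gene 20847; GRCm38 chromosome 10, 128270498 to 128292853), had the largest fold change of the 5 tested STAT genes. It stood at 205, 146 and 112 CPM in panobinostat libraries 1, 5 and 6, against 51.2, 51.1 and 47.0 CPM in vehicle libraries 2, 3 and 4. Every panobinostat library was above every vehicle library, and the panobinostat libraries were far less alike than the vehicle libraries. The means were 155 ± 47.1 CPM with panobinostat and 49.8 ± 2.43 CPM with vehicle (SD, n = 3 each). The log2 fold change was 1.63 ± 0.21 (SE, n = 3 each) with an edgeR adjusted p of 0.0051, and 3.09% of tested genes had a higher log2 fold change. Stat2 remained called without vehicle library 2, 3 or 4, nearer the threshold (edgeR adjusted p = 0.038, 0.024 and 0.040). Without panobinostat library 1, which had the highest Stat2 level, Stat2 was 2.60-fold higher with an edgeR adjusted p of 0.00092.

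The same library also held the most RNA of macrophage and monocyte markers. These 7 genes summed to 33.0, 16.9 and 10.1 CPM in panobinostat libraries 1, 5 and 6, against 10.3, 8.33 and 9.29 CPM in vehicle libraries 2, 3 and 4. The order of the panobinostat libraries in this sum was that of Stat2. The erythroid, mast and progenitor list had that order too, with sums of 6539, 5678 and 5580 CPM in panobinostat libraries 1, 5 and 6. The sums of T and NK cell, B cell, dendritic cell and neutrophil markers had other orders. Vcam1 was the member of the macrophage and monocyte list that was called higher. That call was lost without any 1 vehicle library or panobinostat library 5 (edgeR adjusted p from 0.066 to 0.15), and limma-voom called 0 of the list. The part of macrophages and monocytes in the Stat2 result was not tested. In bulk RNA, fewer cells of a type and less RNA per cell cannot be told apart.

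The promoter of Stat2 is shown because, of the windows of the 5 tested STAT genes, it was the one that held the letters of an interferon-stimulated response element, the site that Stat2 and Irf9 are known to use. Sequences are RefSeq promoter windows of GRCm38.p6, 250 bases before to 50 after a gene's annotated start, and each of the 6 genes had 1 or 2 of them. Both strands were searched for the response element core, which is GAAA, any 2 bases and GAAA, and for the STAT site TTC and GAA with 3 or with 4 bases of any kind between them. The spacing of 4 is the one known for Stat6. The Stat2 window at chr10:128270248-128270547 on the plus strand reads as follows, with capitals on the response element core, here as its reverse complement beginning at position -222 from the start, and on a STAT site with the spacing of 4 that begins at -210.
Stat2: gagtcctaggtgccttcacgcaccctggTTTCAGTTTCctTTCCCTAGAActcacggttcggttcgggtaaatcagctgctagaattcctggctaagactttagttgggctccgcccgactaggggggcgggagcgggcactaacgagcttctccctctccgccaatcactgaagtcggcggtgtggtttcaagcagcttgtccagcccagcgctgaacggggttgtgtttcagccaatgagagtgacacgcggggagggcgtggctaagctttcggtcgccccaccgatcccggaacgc

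The core was in 3.44% of the 32851 promoter windows in the table, the STAT site with a spacing of 3 in 8.30% and with a spacing of 4 in 6.95%. By gene, the core was in 3.99% of 27025 genes and in 52.6% of the 19 interferon targets that had a window, 10 genes. The windows of Stat3, Stat5a, Stat5b and Stat6 held no match to any of the 3 patterns, which says only that these letters are not in those windows. To compare the Stat2 match with those of interferon targets, the stretches around it are set out below, read along the motif strand with the core in capitals. The targets shown are the 5 with the smallest adjusted p among the 10 with a match, each with every match in its window.
Stat2, chr10:128270266-128270295, minus strand: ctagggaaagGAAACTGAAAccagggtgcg
Ddx58, chr4:40239804-40239833, plus strand: ctggccatagGAAATCGAAActgcctcagg
Oas3, chr5:120777715-120777744, minus strand: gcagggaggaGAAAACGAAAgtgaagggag
Eif2ak2, chr17:78882535-78882564, minus strand: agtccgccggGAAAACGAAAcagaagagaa
Isg15, chr4:156200877-156200906, minus strand: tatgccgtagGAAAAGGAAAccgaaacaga
Isg15, chr4:156200871-156200900, minus strand: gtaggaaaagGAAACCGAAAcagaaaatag
Isg15, chr4:156200865-156200894, minus strand: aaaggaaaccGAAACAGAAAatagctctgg
Ifit3, chr19:34583363-34583392, minus strand: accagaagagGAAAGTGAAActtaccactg
Ifit3, chr19:34583397-34583426, minus strand: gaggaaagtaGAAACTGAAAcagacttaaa
Stat4, second annotated start, chr1:52008133-52008162, plus strand: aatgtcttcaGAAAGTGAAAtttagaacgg

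The Stat2 core, GAAACTGAAA, also occurs in 1 of the 2 Ifit3 sites and in a site each of Bst2, Ifit1 and Oas1a, while the other Ifit3 site has the letters of the Stat4 core, GAAAGTGAAA. A match is a description of letters and not of binding, which was not measured here.

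Irf9, the partner that gives the Stat2 complex its DNA contact, had the same order of panobinostat libraries as Stat2 and another order of vehicle libraries. It stood at 289, 223 and 191 CPM in panobinostat libraries 1, 5 and 6, against 83.0, 95.7 and 95.3 CPM in vehicle libraries 2, 3 and 4. The groups did not overlap, and the log2 fold change was 1.36 ± 0.16 (SE, n = 3 each; edgeR adjusted p = 0.0043). Both genes were highest in panobinostat library 1 and lowest of the treated libraries in library 6. Of 25 listed targets of the Stat2 and Irf9 complex, 23 were tested and these rose by 1.138 to 5.301 on the log2 scale, where 11.3% of all tested genes rose. Mx1, Mx2, Ifit3 and Rsad2 had at most 18 counts in any vehicle library and passed the filter through their panobinostat libraries, and with at least 10 counts required in every library 19 targets were called. Mx1 and Isg20 lost their calls without vehicle library 2 or 4, and Rsad2 when library 4 was dropped (edgeR adjusted p between 0.057 and 0.062). Without panobinostat library 1 the 23 remained called, by 1.04 to 4.31 on the log2 scale. In 21 of these 23 the panobinostat libraries had the order of Stat2, library 1 over 5 over 6. The share of all tested genes with this order was not counted. Over the 6 libraries their Pearson r with Stat2 lay between 0.914 and 0.997, a description in which the treatment difference is part of every value. The 4 with the smallest p were the gene of the RNA sensor RIG-I, Ddx58 (log2 fold change 2.54 ± 0.17), the oligoadenylate synthetase Oas3 (2.58 ± 0.19), Dhx58, a relative of RIG-I (3.05 ± 0.27), and Irf7, which amplifies interferon production (3.68 ± 0.35; SE, n = 3 each). Their edgeR adjusted p values lay between 0.0014 and 0.0034.

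**Figure D2:**
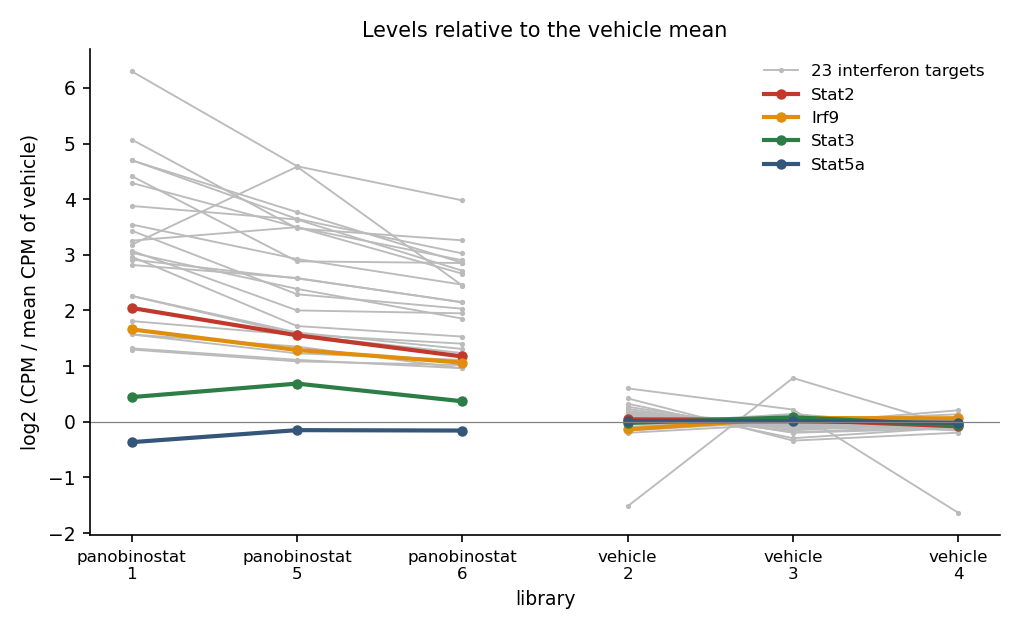
Level of Stat2, Irf9, Stat3, Stat5a and the 23 tested interferon targets (grey) in each library, as log2 of CPM over the mean CPM of vehicle libraries; lines join the libraries of a group for 1 gene and imply no order. Stat2 and Irf9 were highest in panobinostat library 1, Stat3 in panobinostat library 5, and Stat5a was lowest in panobinostat library 1.

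Stat3, which relays interleukin-6 type cytokines and G-CSF (Entrez gene 20848; chromosome 11, 100886806 to 100939594), rose by a smaller amount. It was at 135, 160 and 128 CPM in panobinostat libraries 1, 5 and 6, against 98.0, 105 and 95.2 CPM in vehicle libraries 2, 3 and 4. The groups did not overlap, and the highest level was in panobinostat library 5, not in library 1 as for Stat2. The means were 141 ± 16.6 CPM with panobinostat and 99.5 ± 5.20 CPM with vehicle (SD, n = 3 each). The log2 fold change was 0.51 ± 0.11 (SE, n = 3 each) with an edgeR adjusted p of 0.019. This call was lost without vehicle library 2 (edgeR adjusted p = 0.078), vehicle library 3 (0.053) or vehicle library 4 (0.098), while the log2 fold change stayed between 0.47 and 0.54 in those fits. The last exons of Stat3 overlap those of Stat5a, on the opposite strand, by 72 bases in GENCODE M21, and with no strand setting given in the sources used here reads in that stretch cannot be told apart.

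Stat6, the interleukin-4 STAT (Entrez gene 20852; chromosome 10, 127642955 to 127660987), was at 172, 189 and 174 CPM in panobinostat libraries 1, 5 and 6, against 152, 159 and 150 CPM in vehicle libraries 2, 3 and 4. Its groups did not overlap and the gap between them was small. The log2 fold change was 0.21 with a 95% interval of 0.02 to 0.41 (n = 3 each; edgeR unadjusted p = 0.036 and adjusted p = 0.11), so the gene did not pass. Scaling by library size alone gave 0.11 for Stat6, since that scaling moved the median log2 fold change of all tested genes to -0.10, against 0.01 with TMM factors. Stat6 lies 609510 bases before Stat2 on the same chromosome.

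**Figure D3:**
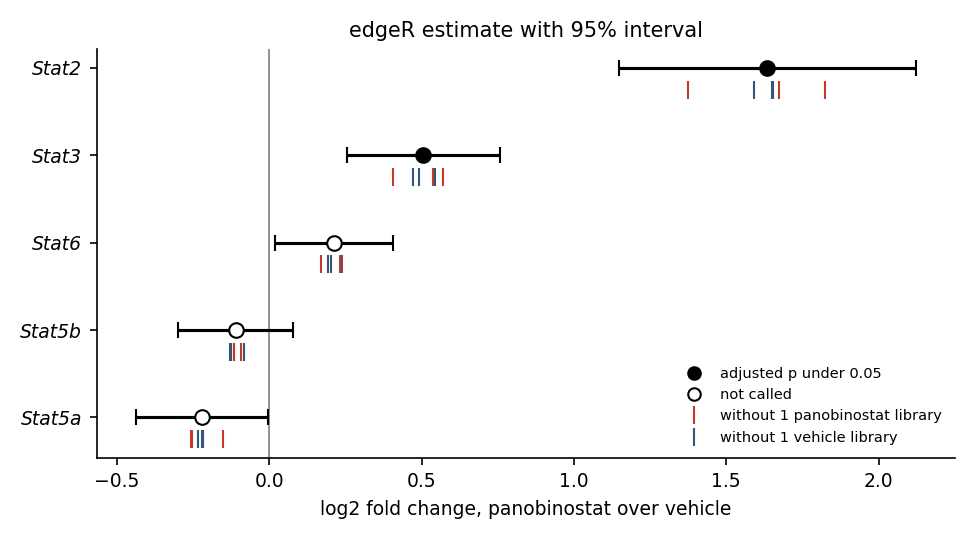
Log2 fold change of the 5 tested STAT genes, panobinostat over vehicle, from edgeR with its 95% interval; filled points were called, and ticks give the estimate without 1 library. Stat2 stayed between 1.38 and 1.82 and Stat3 between 0.41 and 0.57 in these fits, and Stat5a and Stat5b were below 0 in all of them.

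Stat5a and Stat5b relay erythropoietin, interleukin-3 and GM-CSF and lie side by side with Stat3 on chromosome 11. Stat5b (Entrez gene 20851, 100780731 to 100859004) is on the minus strand and Stat5a (Entrez gene 20850, 100859351 to 100885169) on the plus strand. By these RefSeq positions 346 bases lie between Stat5b and Stat5a, and 1636 bases between Stat5a and Stat3. In GENCODE M21 exons of Stat5a and Stat3 overlap by 72 bases, so the annotations differ there. Stat5a was at 230, 267 and 266 CPM in panobinostat libraries 1, 5 and 6, against 298, 298 and 293 CPM in vehicle libraries 2, 3 and 4. Stat5b was at 276, 285 and 286 CPM in panobinostat libraries 1, 5 and 6, against 316, 300.2 and 298 CPM in vehicle libraries 2, 3 and 4. For both genes every panobinostat value was below every vehicle value, as in 22.7% of all tested genes. Neither passed the test: the log2 fold change of Stat5a was -0.22 (95% interval -0.44 to -0.00, edgeR adjusted p = 0.13, n = 3 each) and that of Stat5b -0.11 (-0.30 to 0.08, edgeR adjusted p = 0.36, n = 3 each). Scaling by library size alone gave -0.33 for Stat5a and -0.22 for Stat5b (edgeR adjusted p = 0.053 and 0.11, n = 3 each).

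The pair differed a little in how its counts were split. Stat5a held 45.5%, 48.3% and 48.1% of the pair's counts in panobinostat libraries 1, 5 and 6, against 48.5%, 49.8% and 49.6% in vehicle libraries 2, 3 and 4. The exact 95% binomial intervals, which cover counting error only, were 44.7% to 46.3% for panobinostat library 1 and 47.8% to 49.2% for vehicle library 2, the vehicle library with the lowest share. The difference in mean share, panobinostat minus vehicle, was -1.997 percentage points, and -1.08 without panobinostat library 1. Panobinostat library 1 stood apart, and the intervals of libraries 5 and 6 overlapped that of vehicle library 2. Reads of the pair can be shared: of all 50-base stretches in the GENCODE transcripts, 608 occur in both genes, 8.21% of those of Stat5a and 11% of those of Stat5b. No 50-base stretch was shared between any other pair of the 6 genes.

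Promoter windows of the pair also hold a common stretch, shown because the 2 genes are neighbours with similar levels and shared reads. Capitals mark the 53 of 60 aligned bases that are identical, at 1 annotated start of each gene on GRCm38.p6, ending before the start in Stat5a and crossing it in Stat5b.
Stat5a, chr11:100860418-100860477, plus strand: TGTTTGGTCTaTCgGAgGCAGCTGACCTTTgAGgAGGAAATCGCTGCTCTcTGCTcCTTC
Stat5b, chr11:100822568-100822627, minus strand: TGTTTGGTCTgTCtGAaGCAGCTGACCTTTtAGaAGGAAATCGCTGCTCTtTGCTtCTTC

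The named genes nearest this cluster were higher with panobinostat where they could be tested, beside 11.3% called higher among all tested genes. Of the 2 on either side, Ghdc, Cavin1 and Atp6v0a1 were called higher, at log2 fold changes of 0.89 ± 0.16, 1.59 ± 0.26 and 0.79 ± 0.17 (SE, n = 3 each; edgeR adjusted p = 0.012, 0.0098 and 0.022). Hcrt was too low to test, at 0.126 ± 0.034 CPM with panobinostat and 0.046 ± 0.022 CPM with vehicle (SD, n = 3 each).

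Stat4, the interleukin-12 STAT of T and NK cells (Entrez gene 20849; chromosome 1, 51987106 to 52107189), was close to the detection limit. It had 10, 5 and 7 counts in panobinostat libraries 1, 5 and 6, against 2, 1 and 3 counts in vehicle libraries 2, 3 and 4. Every panobinostat library had more counts than every vehicle library, with 10 counts as the highest and 1 as the lowest. Summed over libraries these were 22 counts with panobinostat and 6 with vehicle, with exact 95% Poisson intervals of 13.8 to 33.3 and 2.20 to 13.1 that cover counting error only. The gene was removed by the filter on low counts, and with no filter it did not pass (edgeR adjusted p = 0.086, n = 3 each). In GENCODE M21, 1033 exon bases of Stat4 are shared with Gm28177, a processed transcript on the same strand. Reads in that stretch cannot be told apart. Cd3d, Cd3e and Cd3g of the T cell receptor complex were each under 0.30 CPM in every library. Cd247, Lck and Nkg7 of the same T and NK cell list were abundant enough to test and were not called. The 11 markers of that list summed to 15.1 to 22.7 CPM with panobinostat and 15.5 to 18.7 CPM with vehicle. The part of T and NK cells in the Stat4 counts was not tested. The dendritic cell list summed to 3.33 to 5.36 CPM with panobinostat and 2.23 to 2.41 CPM with vehicle, where Clec9a was called higher, and the part of these cells in the Stat4 counts was not tested. The Clec9a call was lost without vehicle library 2 or 4 (edgeR adjusted p = 0.074 and 0.078) and the gene was not tested with at least 10 counts in every library.

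Levels of different genes were compared per kilobase of exon, using the union of GENCODE exons, a choice that lowers genes with many annotated ends. On this scale the panobinostat cells held Stat5b at 51.0 ± 1.07, Stat6 at 40.5 ± 2.11, Stat5a at 35.6 ± 2.95, Stat2 at 26.1 ± 7.95, Stat3 at 14.8 ± 1.75 and Stat4 at 0.064 ± 0.017 CPM per kb (SD, n = 3). Vehicle cells held Stat5b at 55.0 ± 1.83, Stat5a at 41.5 ± 0.46, Stat6 at 34.9 ± 1.07, Stat3 at 10.4 ± 0.55, Stat2 at 8.40 ± 0.41 and Stat4 at 0.017 ± 0.0087 CPM per kb (SD, n = 3). Stat6 thus stood above Stat5a in every panobinostat library and below it in every vehicle library, and Stat2 likewise changed places with Stat3. Neighbours in the order did not overlap between libraries in either group, except Stat5a and Stat2 with panobinostat, which ranged from 32.2 to 37.4 and from 18.9 to 34.6 CPM per kb.

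As a share of the summed level of the 6 genes per kb, Stat2 made up 20.4%, 14.2% and 11.8% in panobinostat libraries 1, 5 and 6, against 5.67%, 5.68% and 5.40% in vehicle libraries 2, 3 and 4. Stat5a and Stat5b together gave most of the rest, with Stat5b at 30.4% ± 1.54 with panobinostat and 36.6% ± 0.88 with vehicle and Stat5a at 21.2% ± 2.11 and 27.6% ± 0.27 in the same order (SD, n = 3 each). Stat6 made up 24.1% ± 0.98 with panobinostat and 23.2% ± 0.57 with vehicle, and Stat3 8.81% ± 0.77 and 6.94% ± 0.29 in the same order (SD, n = 3 each). Shares of a sum are not independent of each other.

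**Figure D4:**
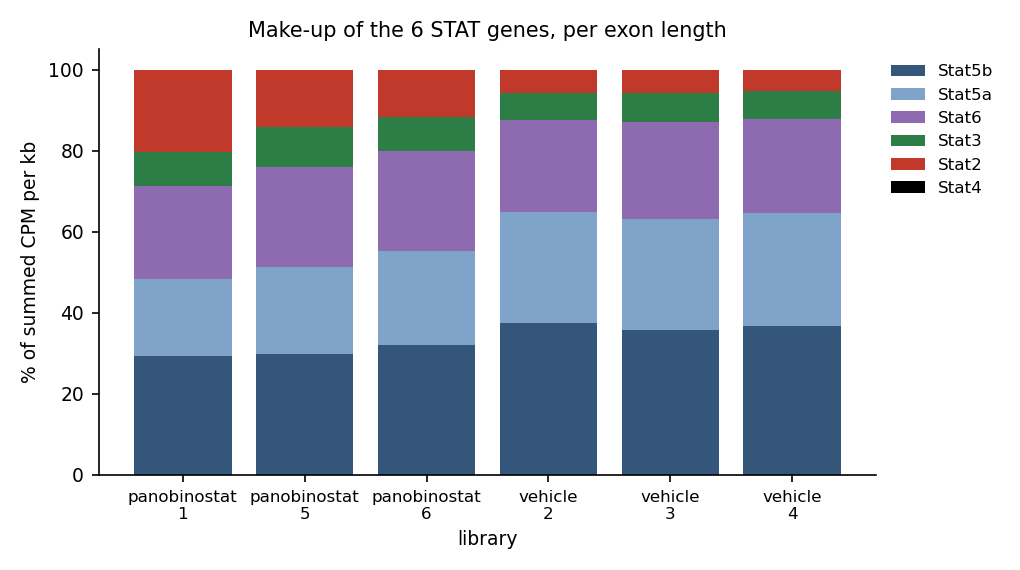
Share of each STAT gene in the summed CPM per kb of the 6 genes, 1 bar per library, panobinostat libraries left of vehicle libraries. The Stat2 share is 11.8% to 20.4% with panobinostat and 5.40% to 5.68% with vehicle, and Stat4 is too small to see.

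For each tested STAT gene the most similar genes, up to 3, were taken by Pearson r of log2 CPM over the 6 libraries, among 9408 other named genes whose mean reached 5 CPM. The treatment difference and the few libraries make high values common: 989 genes had an r above 0.9 with Stat2 and 536 with Stat5b. Closest to Stat2 were Parp12, an interferon-induced antiviral ADP-ribosyltransferase, Naglu, a lysosomal enzyme, and Tstd3, with r of 0.9995, 0.9995 and 0.9990. All 3 were called higher, Parp12 at a log2 fold change of 1.67 ± 0.21 (SE, n = 3 each; edgeR adjusted p = 0.0050) that resembles that of Stat2. Closest to Stat3 were Tmbim6, Stxbp2 and Rp2 (r of 0.9985 to 0.9989), and closest to Stat6 were Smim3, Cadm3 and Pbxip1 (0.9977 to 0.9982). Vps39, Diaph2 and Kdsr were closest to Stat5a (0.9972 to 0.9991), and Dusp2 and Top1mt were close to Stat5b (0.9983 and 0.9962). Among the STAT genes themselves, Stat3 and Stat6 were most alike (r = 0.990, n = 6 libraries).

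The rest of the pathway was read from lists of receptors, kinases, partners, brakes and targets that hold 132 genes, of which 106 were tested, 42 rose and 4 fell, beside 11.3% higher and 9.72% lower among all tested genes. The interferon targets above are 23 of the 42 that rose. The counts below are small and stand against the same 11.3% and 9.72%. Without panobinostat library 1, 4056 genes in all were called, against 2715 with all libraries, so those shares do not hold for that fit. It called 4 JAK kinases, 7 brakes, 6 receptor genes and 6 targets of Stat5, 5 targets of Stat3 and 2 of Stat4. With all libraries 2 of the 4 JAK kinases, which phosphorylate the STATs, rose, and 1 did so with library size alone or with no filter on low counts. Jak3, the kinase of the common gamma chain, was at 32.2, 56.5 and 41.9 CPM in panobinostat libraries 1, 5 and 6, against 24.0, 26.3 and 20.8 CPM in vehicle libraries 2, 3 and 4 (log2 fold change 0.88 ± 0.21, SE, n = 3 each, edgeR adjusted p = 0.027). Jak2, the kinase of the erythropoietin receptor, averaged 283 ± 13.2 CPM with panobinostat and 228 ± 1.85 CPM with vehicle (SD, n = 3 each; edgeR adjusted p = 0.037). Both calls were lost without any 1 vehicle library or panobinostat library 6, and that of Jak2 also without panobinostat library 5 (edgeR adjusted p from 0.056 to 0.14). Jak1 and Tyk2 differed by 0.18 ± 0.13 and 0.40 ± 0.14 on the log2 scale (SE, n = 3 each) and did not pass (edgeR adjusted p = 0.35 and 0.076), but were called without panobinostat library 1 (0.045 and 0.011).

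Receptors upstream of each STAT were uneven. Of 5 tested genes listed as interferon receptors, Ifnar1 and Il10rb rose, at log2 fold changes of 0.48 ± 0.12 and 0.66 ± 0.15 (SE, n = 3 each; edgeR adjusted p = 0.030 and 0.026). Ifnar2, Ifngr1 and Ifngr2 did not pass (0.34 ± 0.13, -0.61 ± 0.20 and 0.46 ± 0.25, edgeR adjusted p = 0.098, 0.070 and 0.22). Ifnlr1 of the same list was too low to test. Without any 1 vehicle library the calls of Ifnar1 and Il10rb were lost, and without panobinostat library 5 that of Ifnar1 (edgeR adjusted p from 0.062 to 0.13). For Stat3, 0 of 7 tested receptor genes passed in edgeR with all libraries and the filter on low counts, and 1 of the list passed with no filter. Before adjustment 1 had a p below 0.05, and DESeq2 called 1 of the 7 where limma-voom called 0. Csf3r, the G-CSF receptor, which was named after its value was seen and is the gene with that unadjusted p, stood at 4.82, 0.968 and 0.914 CPM in panobinostat libraries 1, 5 and 6, against 0.452, 0.567 and 0.343 CPM in vehicle libraries 2, 3 and 4. It was 4.91-fold higher (n = 3 each; edgeR adjusted p = 0.061) and 2.06-fold higher without panobinostat library 1, and its adjusted p was 0.049 and 0.048 without panobinostat libraries 5 and 6. Il10ra, also named after its value was seen, was at 60.3 ± 30.8 CPM with panobinostat and 32.8 ± 12.1 CPM with vehicle (SD, n = 3 each; edgeR adjusted p = 0.17). Without panobinostat library 1 it was called, at a log2 fold change of 1.20 (edgeR adjusted p = 0.024). Il6ra and Il6st, the chains that bind and relay interleukin-6, were both under 0.6 CPM on average in each group. For Stat4, Il12rb2, a chain of the interleukin-12 receptor, fell to 14.2 ± 3.58 CPM with panobinostat, against 30.7 ± 5.11 CPM with vehicle (SD, n = 3 each; edgeR adjusted p = 0.015, and 0.052 and 0.065 without vehicle libraries 2 and 4). Il12rb1, which encodes its partner chain, was too low to test, averaging 0.088 CPM in panobinostat cells and 0.046 CPM in vehicle cells.

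For the Stat5 pair, 4 of 9 tested receptor genes rose. Csf2rb, the shared beta chain of the interleukin-3, interleukin-5 and GM-CSF receptors, averaged 2655 ± 1018 CPM with panobinostat and 966 ± 265 CPM with vehicle (SD, n = 3 each; edgeR adjusted p = 0.018). Its near-identical copy Csf2rb2, whose reads cannot be separated with certainty, rose by 1.86 ± 0.39 on the log2 scale, Il5ra by 1.18 ± 0.19 and Csf2ra by 0.58 ± 0.13 (SE, n = 3 each; edgeR adjusted p = 0.019, 0.0090 and 0.023). The calls of Csf2rb, Csf2rb2 and Csf2ra were lost without vehicle library 2 or 4, and that of Csf2ra also without panobinostat library 5 (edgeR adjusted p from 0.058 to 0.10). Epor, the erythropoietin receptor, was at 111 ± 48.3 CPM with panobinostat and 75.4 ± 8.72 CPM with vehicle (SD, n = 3 each) and did not pass (edgeR adjusted p = 0.19). For Stat6, Il4ra, the interleukin-4 receptor chain that is also a Stat6 target, rose to 119 ± 6.71 CPM with panobinostat, against 71.3 ± 10.7 CPM with vehicle (SD, n = 3 each; edgeR adjusted p = 0.010, and 0.062 without vehicle library 4).

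Of 10 tested partners and import factors, 2 rose: Irf9 and the co-activator Ncoa1, at 13.0 ± 2.35 CPM with panobinostat and 3.67 ± 0.47 CPM with vehicle (SD, n = 3 each; edgeR adjusted p = 0.0041). Of 18 tested brakes, 2 rose, a share near the 11.3% of all tested genes. Usp18, which blocks the type I interferon receptor and is itself on the interferon target list, rose by 2.51 ± 0.28, and Cish, a Stat5-induced inhibitor, by 0.66 ± 0.15 on the log2 scale (SE, n = 3 each; edgeR adjusted p = 0.0042 and 0.025). The call of Cish was lost without any 1 vehicle library or panobinostat library 5 (edgeR adjusted p from 0.056 to 0.070). The inhibitors Socs1, Socs2 and Socs3 did not pass, with log2 fold changes of 0.20 ± 0.26, -0.26 ± 0.17 and 0.49 ± 0.43 (SE, n = 3 each; edgeR adjusted p = 0.60, 0.31 and 0.44).

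**Figure D5:**
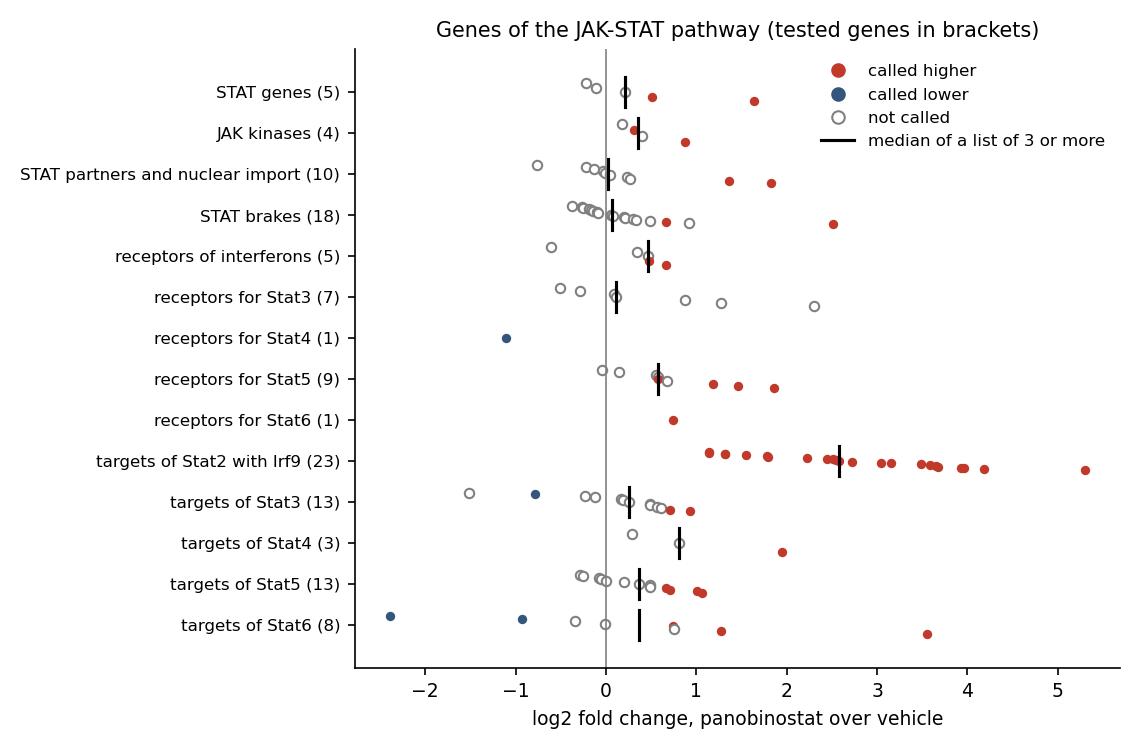
Log2 fold change of every tested gene of the STAT pathway lists, panobinostat over vehicle, 1 row per list with the number of tested genes in brackets; red points were called higher, blue lower, open points were not called, and black lines are medians. The 23 interferon targets all lie above 1, while the other lists straddle 0 or hold few genes.

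Targets of the other STATs changed in part and in both directions. Of 13 tested Stat5 targets 4 rose (median log2 fold change 0.37, beside 0.01 over all tested genes), namely the survival gene Bcl2l1 (1.06 ± 0.17), the cyclin Ccnd3 (1.01 ± 0.16), the kinase Pim1 (0.71 ± 0.16) and Cish (SE, n = 3 each; edgeR adjusted p from 0.0090 to 0.025). When vehicle library 2 or 4 was left out, 0 of these 4 were called (edgeR adjusted p between 0.053 and 0.085). Of 13 tested Stat3 targets 2 rose and 1 fell. The adhesion molecule Icam1 rose by 0.93 ± 0.12, Pim1 is shared with the Stat5 list, and Birc5, the mitotic survivin, fell by 0.78 on the log2 scale (SE of 0.12 and 0.14, n = 3 each; edgeR adjusted p = 0.0051 and 0.013), a call lost without vehicle library 2 (0.061) or 4 (0.065). Of 8 tested Stat6 targets 3 rose and 2 fell, and 3 and 2 in all were called without vehicle libraries 2 and 4. The transglutaminase Tgm2 stood at 66.5 ± 35.7 CPM with panobinostat and 5.67 ± 1.34 CPM with vehicle, and the chemokine Ccl17 at 7.84 ± 0.65 and 3.25 ± 0.36 CPM in the same order (SD, n = 3 each; edgeR adjusted p = 0.0042 and 0.0065). Gata3, the T helper type 2 factor, fell to 46.2 ± 10.7 CPM with panobinostat, against 88.3 ± 8.15 CPM with vehicle (SD, n = 3 each; edgeR adjusted p = 0.014, and 0.056 and 0.070 without vehicle libraries 2 and 4). Of 3 tested Stat4 targets, the protease Furin rose (log2 fold change 1.95 ± 0.41, SE, n = 3 each; edgeR adjusted p = 0.019, and 0.087 and 0.088 without vehicle libraries 2 and 4). Without panobinostat library 5 its log2 fold change was 1.34. Ifng, another Stat4 target, had 0 counts in every library.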

How the data were processed

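RNA was measured in 6 libraries of sorted leukemia cells, 3 per treatment, made per the labels' protocols with the Illumina TruSeq RNA kit. The authors deposited raw counts of reads, 1 whole number for each Entrez gene and library. Tools listed, per the submitters' processing notes, include cutadapt 2.1, HISAT2 2.1.0 and featureCounts of Subread 2.0.0, with mm10 as the build. The sources used here do not give the annotation, the strand setting or the treatment of reads with several placements.

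Names came from RefSeq for GRCm38, the assembly of mm10, for 25275 of 27179 IDs and from GENCODE M21 for 18. Columns were tied to groups by the words treated and control, and 0 columns were left unused. Genes passing filterByExpr were tested with edgeR 4.0.16 (R 4.3.3, TMM factors, quasi-likelihood F test, treatment as the only term). SE is the absolute log2 fold change over the square root of F. The test was checked on simulated counts. Log2 CPM for correlations had a prior count of 2.

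The members, lists and naming rule were chosen with earlier results of these data known. Named are the STAT genes, up to 4 called genes with the smallest p per pathway list, fixed pathway genes, the 3 genes most like each member and the 2 neighbours on each side of the Stat5 cluster. Marker genes and the genes of the promoter comparison were named after their values were seen. Alternatives were DESeq2 1.42.0, limma-voom (limma 3.58.1), a robust fit, 2 other normalizations, 2 other filters and leaving out each library. Some genes that these rules take in are not reported here.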

Additional observations from a re-analysis of the deposited data

How the results depend on the processing

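Stat2 and Stat3 were called higher, and Stat5a, Stat5b and Stat6 were not called, under DESeq2, limma-voom, the robust fit, RLE factors, library size alone, no filter and at least 10 counts in every library. Over these settings the log2 fold change was 1.52 to 1.64 for Stat2 and 0.40 to 0.51 for Stat3, and the 5 directions did not change. Between settings the count of calls over all genes ran from 2557 to 3566.

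Single libraries mattered more. Leaving out each in turn gave 438 to 4056 calls over all genes: 438, 609 and 1259 when vehicle libraries 4, 2 and 3 were dropped, and 1637, 2086 and 4056 when panobinostat libraries 5, 6 and 1 were. The STAT genes called were 1 without any 1 vehicle library and 2 without any 1 panobinostat library, since Stat3 lost its call at log2 fold changes of 0.47 to 0.54; over all 6 fits it ran from 0.41 to 0.57. The pathway genes called, 46 in all, were 26 to 60, with 26 when vehicle library 4 and 28 when vehicle library 2 was dropped. Stat4, a ratio of 22 to 6 counts, ran from 1.57 to 2.31 on the log2 scale, and depth limits any statement on it. No paired analysis was possible because the column names carry no replicate number that matches the labels. The column names hold 2 further numbers of unstated meaning. No value of the middle number occurs in both groups, so a batch marked by it cannot be told apart from treatment, and the last number is 3 in every column but that of panobinostat library 1.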
